A study of Mus musculus with 9 samples.

Results

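The genes described here carry cargo into and out of the cilium. They comprise the subunits of the intraflagellar transport (IFT) complexes, the BBSome and the proteins that assemble it, and the kinesin-2 and dynein-2 motors. Members were taken from the deposited table as every gene whose symbol was Ift or Bbs followed by a number, together with 20 named partners, a rule on symbols alone. This gave 42 of the 15228 genes in the table, with 7 genes of IFT-A, 16 of IFT-B, 11 of the BBSome and its assembly, 4 of kinesin-2 and 4 of dynein-2.

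Cells sorted as retinal ganglion cells (RGCs) were sequenced from retinas of WT mice in 3 groups of 3 libraries. Ctrl came from intact retinas, ONC from retinas 3 d after optic nerve crush with an intraocular injection of PBS, and TPEN from retinas 3 d after crush with an injection of TPEN at 100 μM. TPEN is a membrane-permeable chelator with a high affinity for zinc. According to the methods, C57BL/6J mice were used, surgery was done at 6 to 8 weeks of age, and the cells were gated as CD90.2+ CD48neg CD15neg CD57neg. Neither the labels nor the methods say whether a group's 3 libraries are 3 animals or groups of animals, so p-values measure only the spread between these libraries. An injection into an intact eye was not among the groups, so crush and injection cannot be told apart in ONC/Ctrl.

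The cilium is built and maintained by trains of IFT particles that move along its microtubules. The trains hold the complexes IFT-A and IFT-B, move outward with kinesin-2 and return with dynein-2. The BBSome rides on the trains to carry membrane proteins out of the cilium. In rods and cones the outer segment is a modified cilium, and proteins of the outer segment reach it through a narrow connecting cilium. Mutations of BBSome genes cause Bardet-Biedl syndrome, in which photoreceptors degenerate.

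Totals per library ranged from 19946993 to 23109754 reads. Of 8 listed markers of RGCs, the defining Rbpms, Pou4f1 and Slc17a6 were each below 0.5 RPKM (reads per kilobase of exon, scaled to the size of the library) as a mean over the 9 libraries, with 0.605, 0.571 and 0.268 RPKM in Ctrl. The other 5, which include neurofilaments that further neurons also express, were higher, with Ctrl means of 258 RPKM for Nefl, 49.5 for Nefm, 31.1 for Nefh, 19.9 for Sncg and 4.74 for Thy1, the gene of the gate antigen CD90. Pou4f2, Pou4f3 and Isl2 were looked for but were not among the 15228 genes of the deposited table, so they were not analysed here. The 14 rod markers summed to 23124 to 23858 RPKM in Ctrl. Their sum was 20500 to 20612 RPKM in ONC and 21739 to 21835 RPKM in TPEN. The label RGC therefore stands here for the sorted cells, whose RNA was rich in rod transcripts. The 8 cone markers summed to 133 to 139, 114 to 123 and 204 to 208 RPKM in Ctrl, ONC and TPEN, and the 11 listed markers of microglia and macrophages summed to 4.58 to 5.54, 59.8 to 63.0 and 26.5 to 27.2 RPKM. In such bulk samples, fewer cells of a type and less RNA per cell cannot be told apart.

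The promoters of the members show a feature that the choice did not use. RFX transcription factors bind the X-box, a pair of inverted elements found before many ciliary genes. Promoters from 250 bases before to 50 bases after the RefSeq start (GRCm38.p6) were found for 37 of the 42 members. Dync2li1, Ift80, Ttc30b, Ift122 and Ift81 had no entry. The letters GTTNCC, followed after 0 to 3 bases by GGNAAC, read the same on both strands and were present in 3 members, Bbs7, Ift57 and Ttc26, or 8.11% of the 37. Among all genes with a promoter, they were present in 253 of 27025, or 0.936%. A gene with more than one start counted if any of its promoters held the letters. Below, capitals mark these letters, and each sequence is given 5′ to 3′ on the strand of the gene because it holds the matched element.
Bbs7 (chr3:36613489-36613518, minus strand): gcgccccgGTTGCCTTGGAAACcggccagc
Ttc26 (chr6:38381483-38381512, plus strand): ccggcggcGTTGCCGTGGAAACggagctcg
Ift57 (chr16:49699226-49699254, plus strand): gccctgcgGTTGCCTGGTAACggtgggga
The matches began at positions -121 (Bbs7), -33 (Ttc26) and -60 (Ift57) from the RefSeq start. By the deposited gene bounds, which began at 38381469 for Ttc26 and 49699233 for Ift57, the matches of these genes lay inside the gene. The shorter element GTTGCC, or GGCAAC on the other strand, is also contained in all of these 3 matches. It was present in 14 members (37.8%), against 3821 of the 27025 genes (14.1%). These shares are descriptions of letters and not of bound sites. For Arl6, the member with the largest difference below, the 100 bases before its most upstream RefSeq start held neither form.
Arl6 (chr16:59639410-59639509, minus strand): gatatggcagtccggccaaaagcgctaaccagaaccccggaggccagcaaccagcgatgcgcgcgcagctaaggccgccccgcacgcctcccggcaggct

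All 42 members were detected in every library, with 71 (Ift27) to 12002 (Wdr60) reads per member and library. Their mean levels over the 9 libraries ranged from 1.08 RPKM (Tulp3) to 136 RPKM (Wdr60), with a median of 11.8 RPKM against 5.08 RPKM over the 13566 genes tested. Wdr60, an intermediate chain of dynein-2, measured 141, 139 and 136 RPKM in the Ctrl libraries, 135, 129 and 132 RPKM in ONC, and 133, 135 and 140 RPKM in TPEN. The heavy chain of the same motor, Dync2h1, was among the lowest members. It measured 1.93, 1.89 and 1.97 RPKM in Ctrl, 1.63, 1.78 and 1.74 RPKM in ONC, and 1.72, 1.79 and 1.97 RPKM in TPEN. Subunits of one motor thus differed widely in level per length, and the ONC libraries of Wdr60 lay just below the Ctrl libraries while its TPEN libraries overlapped both.

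The 7 coat subunits of the BBSome (Bbs1, Bbs2, Bbs4, Bbs5, Bbs7, Bbs9 and Ttc8) were closer in level, from 10.7 RPKM (Bbs9) to 51.6 RPKM (Bbs7). Bbs7, a subunit of the core on which the coat is assembled, measured 52.5, 55.2 and 51.9 RPKM in Ctrl, 49.97, 49.0 and 49.9 RPKM in ONC, and 50.3, 51.8 and 53.7 RPKM in TPEN. All ONC libraries of Bbs7 were below all Ctrl libraries, but the difference missed the threshold (log2 fold change -0.10, limma adjusted p = 0.0757). The coat subunits together summed to 208 ± 2.15, 198 ± 1.54 and 203 ± 0.642 RPKM in Ctrl, ONC and TPEN (mean ± SD of 3 libraries each). The 3 chaperonin-like members that assemble the BBSome, Mkks, Bbs10 and Bbs12, had lower levels than each coat subunit. IFT-A ranged from 1.08 RPKM (Tulp3) to 49.8 RPKM (Ift43), and IFT-B from 2.57 RPKM (Ttc26) to 48.3 RPKM (Ift74). In kinesin-2, the motor subunits Kif3a and Kif3b were more abundant than the accessory subunit Kifap3. The homodimeric motor Kif17 measured 1.85, 1.38 and 1.72 RPKM in Ctrl, 1.58, 1.37 and 1.40 RPKM in ONC, and 1.62, 1.36 and 1.39 RPKM in TPEN, with overlap between all groups.

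**Figure D1:**
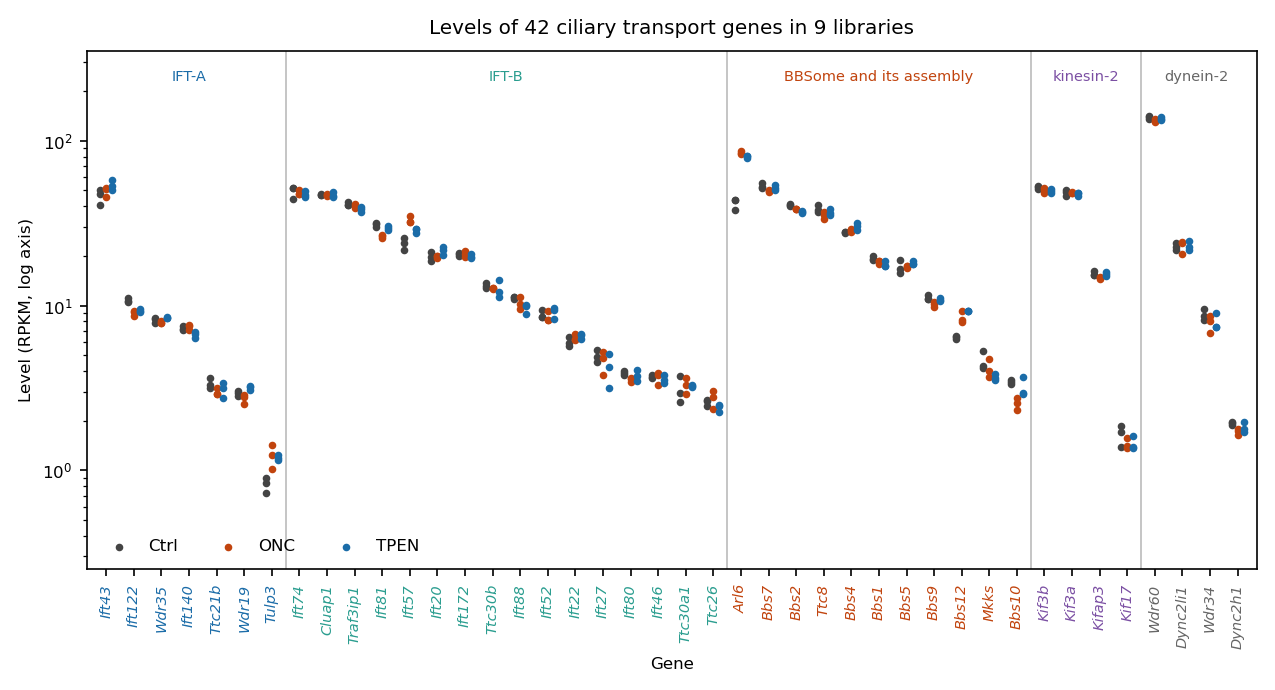
Level of each of the 42 members in each of the 9 libraries, in RPKM on a log axis, with genes grouped by role and ordered by mean within a role, and a point per library in the color of its group. Levels span from Tulp3 (mean 1.08 RPKM) to Wdr60 (136 RPKM), and the 3 groups lie close together for most members, with Arl6 as the clearest exception.

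Libraries of a group lay close together for these genes. The median within-group coefficient of variation of the members was 4.52%, against 7.28% over all genes tested, and ranged from 0.777% (Bbs2) to 15.8% (Ift27, a small GTPase of IFT-B with the fewest reads). It was 2.91% for the 17 members at 20 RPKM or more, 3.76% for the 13 members from 5 to 20 RPKM and 7.94% for the 12 members under 5 RPKM. The median level of the members was above that of all genes tested (11.8 against 5.08 RPKM). Their spread was not compared with that of other genes at like levels.

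To examine which members differed after crush, ONC was compared with Ctrl. Arl6, Bbs12, Ift57 and Tulp3 were higher and Ift81, Ift122 and Bbs10 were lower at a limma adjusted p under 0.05, so 7 of 42 members passed (16.7%), against 18.7% of all genes tested. The 4 higher members were 9.52% against a background of 11.7%, and the 3 lower members 7.14% against 6.97%. At an unadjusted limma p under 0.05 there were 12 members (28.6%, background 31.6%). Quantile normalization between the libraries moved the median log2 fold change of all genes from 0.017 to -0.033 and gave 3 higher and 8 lower members, where 9.3% of all genes were higher and 10.5% lower. Arl6 alone reached a fold change of 1.5, where 4.58% of genes were higher and 0.752% lower. The median log2 fold change was -0.053 over the members and 0.017 over all genes, and the median size without sign was 0.089 and 0.132. Libraries of the groups did not overlap for 4 members in the higher direction (background 20.7%) and 11 in the lower direction (26.2%, background 15.8%).

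Arl6 is the small GTPase that recruits the BBSome to membranes. Its gene lies on chromosome 16 (59612949 to 59639391, minus strand, GRCm38). It measured 43.8, 43.5 and 38.2 RPKM in Ctrl, 83.5, 86.4 and 84.2 RPKM in ONC, and 81.0, 78.7 and 80.8 RPKM in TPEN. Every crushed library, with or without TPEN, was above every intact library, and all TPEN libraries were slightly below all ONC libraries. Arl6 rose 2.02-fold in ONC/Ctrl (log2 fold change 1.02, standard error 0.049, limma adjusted p = 6.4e-07) and 1.92-fold in TPEN/Ctrl (0.94, adjusted p = 2.0e-06). In TPEN/ONC its log2 fold change was -0.08 (95% interval -0.19 to 0.03, limma adjusted p = 0.393). The mean increase over Ctrl in the TPEN libraries was 89.4% ± 2.92 of that in ONC (SD, n = 3). This SD covers the TPEN libraries only and leaves out the spread of Ctrl and ONC. By log2 fold change in ONC/Ctrl, Arl6 ranked 350 of 13566 genes. An exact permutation test over the 280 ways to split the 9 libraries into 3 groups gave p = 0.00357, the smallest it allows. This p was not adjusted, and Bbs12, Ift57 and Bbs2 gave the same value. Neither Mina nor Crybg3, listed genes downstream of Arl6, passed in ONC/Ctrl, and genes on its upstream side are not given here. Mina had a log2 fold change of 0.05 (limma adjusted p = 0.568) and Crybg3 of 0.13 (adjusted p = 0.502), and Crybg3 rose in TPEN/Ctrl by 0.48 (adjusted p = 0.0266) on the log2 scale.

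Bbs12 encodes a chaperonin-like protein that helps to assemble the BBSome core. It measured 6.54, 6.47 and 6.26 RPKM in Ctrl, 9.20, 7.99 and 8.17 RPKM in ONC, and 9.26, 9.20 and 9.26 RPKM in TPEN. All crushed libraries were above all intact libraries, and the TPEN libraries were above the ONC libraries, by a small margin for the highest of these. Its log2 fold change was 0.39 in ONC/Ctrl (limma adjusted p = 0.0014), 0.13 in TPEN/ONC (adjusted p = 0.238) and 0.52 in TPEN/Ctrl (adjusted p = 3.6e-04). Its reads are uncertain. Bbs12 shares 32 exon bases with Cetn4 on the opposite strand and 32 with the predicted gene Gm43439 on its own strand, and the use of strand in the counting is not given in the sources used here. Those neighbors also rose in ONC/Ctrl, Cetn4, a centrin, by 0.75 (limma adjusted p = 2.0e-05) and Gm43439 by 1.83 (adjusted p = 2.4e-06) on the log2 scale. Fgf2, a growth factor gene that overlaps Gm43439, rose by 2.43 (adjusted p = 6.1e-09). What part these genes have in the value of Bbs12 was not tested.

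Bbs10, another chaperonin-like assembly factor, went the other way from Bbs12. It measured 3.35, 3.43 and 3.51 RPKM in Ctrl, 2.75, 2.31 and 2.56 RPKM in ONC, and 3.67, 2.94 and 2.90 RPKM in TPEN. All ONC libraries were below all Ctrl and all TPEN libraries. Its log2 fold change in ONC/Ctrl was -0.42 (limma adjusted p = 0.020), a call lost without Ctrl replicate 2 (0.0559), Ctrl replicate 3 (0.0584), ONC replicate 2 (0.0741) or ONC replicate 3 (0.0519). In TPEN/ONC it was 0.30 (95% interval 0.07 to 0.54, limma adjusted p = 0.124). The third assembly factor, Mkks, measured 4.30, 4.18 and 5.32 RPKM in Ctrl, 4.73, 3.70 and 3.99 RPKM in ONC, and 3.55, 3.82 and 3.65 RPKM in TPEN. Its TPEN libraries were below the Ctrl libraries and ONC overlapped both. Mkks passed in no comparison, and its log2 fold change was -0.15 in ONC/Ctrl (limma adjusted p = 0.416). Mkks shares 944 bases at 100% identity with the transcript AL731706.1, so its reads are uncertain.

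Of the BBSome coat, no subunit passed in ONC/Ctrl. At an unadjusted limma p under 0.05, 4 of the 7 were lower (Bbs2, Bbs7, Bbs9 and Ttc8), where 31.6% of all genes passed in either direction, and voom on the whole reads called 1 of them, Bbs7. The same 4 genes passed after quantile normalization. Bbs2, a core subunit, measured 40.4, 40.8 and 41.3 RPKM in Ctrl, 38.7, 38.7 and 38.8 RPKM in ONC, and 36.5, 37.3 and 36.9 RPKM in TPEN. Its 3 groups did not overlap, with Ctrl highest and TPEN lowest, and the differences were small. Its log2 fold change was -0.08 in ONC/Ctrl (limma adjusted p = 0.0745), -0.07 in TPEN/ONC (adjusted p = 0.157) and -0.15 in TPEN/Ctrl (adjusted p = 0.0055). Against Ctrl, the rod markers moved in the same direction as Bbs2. Of 14, 10 were lower and 1 higher (Sag) in ONC/Ctrl, and 9 were lower in TPEN/Ctrl. In TPEN/ONC, however, 3 rod markers were higher and 1 lower (Sag), while Bbs2 had a lower mean. The part of the rod markers in these small differences was not tested.

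Ift57 is a peripheral subunit of IFT-B on chromosome 16 (49699233 to 49765126, plus strand), and it is a member with the full X-box letters. It measured 25.9, 23.9 and 21.9 RPKM in Ctrl, 32.0, 32.1 and 34.9 RPKM in ONC, and 27.7, 29.1 and 29.0 RPKM in TPEN. The 3 groups did not overlap, and TPEN lay between the other two. Ift57 rose in ONC/Ctrl (log2 fold change 0.47, standard error 0.061, limma adjusted p = 5.1e-04), and this call held in all 9 fits that left out a library. In TPEN/ONC the log2 fold change was -0.21 (95% interval -0.34 to -0.07, limma adjusted p = 0.0765), which passed without Ctrl replicate 1 (0.0483), without Ctrl replicate 3 (0.0329), with only the 6 libraries compared (0.0376) and with voom (0.0074). Its increase over Ctrl in the TPEN libraries was 51.6% ± 8.51 of that in ONC (SD, n = 3). This SD covers the TPEN libraries only and leaves out the spread of Ctrl and ONC. The difference of Ift57 in TPEN/Ctrl was 0.26 on the log2 scale (limma adjusted p = 0.0196). That call was lost without Ctrl replicate 2 (0.0526), TPEN replicate 2 (0.0634) or TPEN replicate 3 (0.0640). Ift57 shares 225 exon bases with Gm15518 on the opposite strand, a gene whose log2 fold change was 0.44 in ONC/Ctrl (limma adjusted p = 0.0033). If strand was not used in the counting, part of the reads of Ift57 cannot be told apart from those of Gm15518. The other X-box members, Bbs7 and Ttc26, passed in no comparison of the limma fit.

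Ift81, a core IFT-B subunit that binds tubulin together with Ift74, was the single member called in TPEN/ONC. It measured 29.9, 31.8 and 31.3 RPKM in Ctrl, 25.7, 26.5 and 26.9 RPKM in ONC, and 29.7, 30.4 and 28.7 RPKM in TPEN. All ONC libraries were below all Ctrl and all TPEN libraries, while Ctrl and TPEN overlapped. The log2 fold change was -0.23 in ONC/Ctrl (limma adjusted p = 0.0019), kept in all 9 fits that left out a library, and 0.17 in TPEN/ONC (adjusted p = 0.0262). The second call was lost without ONC replicate 1 (0.10), ONC replicate 2 (0.0767), ONC replicate 3 (0.0524), TPEN replicate 1 (0.0752) or TPEN replicate 2 (0.0876). In TPEN/Ctrl it was -0.07 (95% interval -0.15 to 0.02, limma adjusted p = 0.293). Its partner Ift74 did not pass in any comparison, with 51.5, 51.5 and 44.0 RPKM in Ctrl, 47.2, 47.8 and 49.9 RPKM in ONC, and 47.2, 49.9 and 45.7 RPKM in TPEN.

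In IFT-A, Ift122 is a core subunit of the complex. It measured 10.6, 10.5 and 11.1 RPKM in Ctrl, 9.17, 9.21 and 8.58 RPKM in ONC, and 9.47, 9.29 and 9.07 RPKM in TPEN. Every crushed library was below every intact library, and ONC and TPEN overlapped. Its log2 fold change was -0.25 in ONC/Ctrl (limma adjusted p = 0.0051), kept in all 9 fits that left out a library, and -0.21 in TPEN/Ctrl (adjusted p = 0.0202). The latter was lost without Ctrl replicate 1 (0.0512), Ctrl replicate 3 (0.0636), TPEN replicate 2 (0.0548) or TPEN replicate 3 (0.0697). In TPEN/ONC its log2 fold change was 0.05 (95% interval -0.06 to 0.16, limma adjusted p = 0.638).

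Tulp3, which links IFT-A to receptors bound for the cilium, was the least abundant member. It measured 0.726, 0.834 and 0.901 RPKM in Ctrl, 1.24, 1.42 and 1.02 RPKM in ONC, and 1.19, 1.24 and 1.16 RPKM in TPEN, from 152 to 305 reads per library. All crushed libraries were above all intact libraries. Its log2 fold change was 0.52 in ONC/Ctrl (limma adjusted p = 0.028) and 0.50 in TPEN/Ctrl (adjusted p = 0.0435). The first call was lost without Ctrl replicate 1 (0.0954), Ctrl replicate 2 (0.0645), ONC replicate 1 (0.0809) or ONC replicate 2 (0.0997), after quantile normalization (0.0744) and with only the 6 libraries compared (0.0613). The second was lost without any single Ctrl or TPEN library or without ONC replicate 1, with adjusted p from 0.0558 to 0.133, after quantile normalization (0.0958) and with only the 6 libraries compared (0.0512). The markers of microglia and macrophages, 10 of 10 tested higher in ONC/Ctrl and in TPEN/Ctrl, moved in the same direction as Tulp3 and the other higher members. So did 3 of 4 markers of astrocytes and reactive glia in both comparisons (Gfap, Vim and Aldh1l1), whose list summed to 23.7 to 25.7, 82.6 to 86.4 and 59.4 to 66.0 RPKM in Ctrl, ONC and TPEN. Of 7 markers of Müller glia, Apoe and Clu were higher and 3 lower in ONC/Ctrl, and Clu was higher and 2 lower in TPEN/Ctrl, with sums of 562 to 577, 601 to 613 and 483 to 496 RPKM. The part of these markers in the members' values was not tested.

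**Figure D2:**
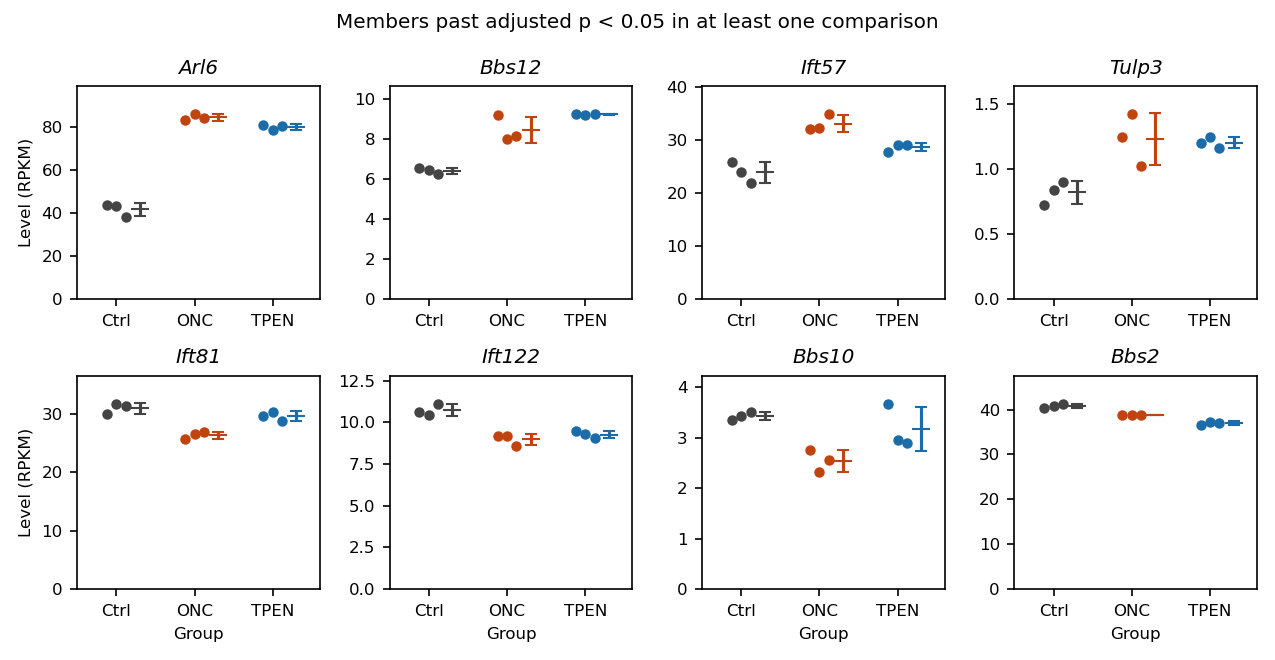
Level in RPKM (linear axes from 0) of the 8 members that passed a limma adjusted p of 0.05 in at least one comparison. Points are libraries, and the bar beside them is the mean with the SD of the 3 libraries. Arl6, Bbs12 and Tulp3 stay high with TPEN, Ift57 lies between, and Ift81 is low in ONC alone.

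To examine the effect of the chelator, TPEN was compared with ONC. Only Ift81 passed, so 1 of 42 members was called against 7.39% of all genes. It was 1 higher member of 42 (2.38%) against 3.24% of all genes, and 0 members were lower against 4.14%. At an unadjusted limma p under 0.05 there were 7 members (16.7%, background 22%), namely Bbs10, Ift20, Ift81 and Wdr19 with higher and Bbs2, Ift140 and Ift57 with lower means. With voom on the whole reads, 2 members were higher (Ift81 and Wdr19) and 1 was lower (Ift57). No member reached a fold change of 1.5 with an adjusted p under 0.05, where the background was 0.818% higher and 1.21% lower. The groups did not overlap for 14 members (33.3%, background 28%), 10 of them in the higher direction (23.8%, background 12.5%) and 4 in the lower direction (9.52%, background 15.6%). The median log2 fold change was 0.0074 over the members and -0.011 over all genes. The 8 cone markers were all higher in TPEN/ONC, and 5 of 10 microglia and macrophage markers were lower by limma and all 10 by voom. By limma, rods had 3 higher and 1 lower of 14, RGCs 1 higher and 3 lower of 5 tested. Of 4 amacrine markers tested, 3 were higher, and of 8 bipolar markers 1 was higher. Müller glia had 1 higher and 3 lower of 7, and astrocytes and reactive glia 2 lower of 4. The part of all these markers in the members' values was not tested.

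Wdr19, a core subunit of IFT-A, measured 2.95, 2.84 and 3.02 RPKM in Ctrl, 2.86, 2.79 and 2.53 RPKM in ONC, and 3.08, 3.19 and 3.24 RPKM in TPEN. All its TPEN libraries were above all others, with a log2 fold change of 0.21 in TPEN/ONC (95% interval 0.04 to 0.38, limma adjusted p = 0.135). Ift140, also a core IFT-A subunit, lay in the other direction. It measured 7.18, 7.07 and 7.46 RPKM in Ctrl, 7.61, 7.48 and 7.06 RPKM in ONC, and 6.95, 6.68 and 6.34 RPKM in TPEN. Its TPEN libraries were below all others, with a log2 fold change of -0.15 in TPEN/ONC (95% interval -0.27 to -0.02, limma adjusted p = 0.157). Ift20, an IFT-B subunit that also acts at the Golgi, measured 21.1, 19.7 and 18.7 RPKM in Ctrl, 19.9, 19.99 and 19.3 RPKM in ONC, and 22.6, 20.3 and 21.7 RPKM in TPEN. Its TPEN libraries were above the ONC libraries and overlapped Ctrl (log2 fold change 0.12 in TPEN/ONC, limma adjusted p = 0.224).

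In TPEN/Ctrl, 6 members passed (14.3%, background 13.4%). Arl6, Bbs12, Ift57 and Tulp3 were higher (9.52%, background 8.36%) and Ift122 and Bbs2 lower (4.76%, background 5.01%). At 1.5-fold, Arl6 was the only member, against 3.45% of genes higher and 0.457% lower. The groups did not overlap for 6 members in the higher direction (14.3%, background 18.1%) and 8 in the lower direction (19%, background 13.3%). This comparison shares its Ctrl libraries with ONC/Ctrl, so the 2 are not independent. Bbs4, a coat subunit, measured 27.8, 27.5 and 28.1 RPKM in Ctrl and 31.7, 28.7 and 30.4 RPKM in TPEN. Its groups did not overlap, but the log2 fold change of 0.12 passed only without TPEN replicate 2 (limma adjusted p = 0.0308) and with voom (0.0248), against 0.0740 in the fit of all 9 libraries.

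The motors showed no call in any comparison by limma or by voom. Of kinesin-2 and dynein-2, 0 of 4 members each passed, where 18.7%, 7.39% and 13.4% of all genes did in ONC/Ctrl, TPEN/ONC and TPEN/Ctrl. At an unadjusted p under 0.05 only Wdr60 passed, in ONC/Ctrl (log2 fold change -0.07, limma adjusted p = 0.151). The unadjusted shares of all genes in the same order were 31.6%, 22% and 27.2%. With so few genes, these counts do not set the motors apart from all genes. After quantile normalization 1 motor member passed, Kifap3, in ONC/Ctrl (-0.14, limma adjusted p = 0.0465). For the kinesin-2 genes the 95% intervals ran from -0.46 to 0.12 in ONC/Ctrl and from -0.29 to 0.30 in TPEN/ONC on the log2 scale. For the dynein-2 genes they ran from -0.39 to 0.17 in ONC/Ctrl and from -0.23 to 0.28 in TPEN/ONC. The widest intervals belonged to genes with few reads, such as Kif17.

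The same kind of interval was read for all members without a call. The intervals are per gene, were not adjusted for the number of members, and hold for these libraries and the RPKM scaling only. In ONC/Ctrl the 35 members without a call had log2 fold changes from -0.17 to 0.10, and the 95% intervals of all 35 lay within a 1.5-fold change and those of 23 within a 1.2-fold change. In TPEN/ONC the 41 members without a call ranged from -0.21 to 0.30, with all 41 within 1.5-fold and 27 within 1.2-fold. In TPEN/Ctrl the 36 without a call ranged from -0.31 to 0.21, with 35 within 1.5-fold and 24 within 1.2-fold. Ift27 was the exception there, with 4.85, 4.53 and 5.36 RPKM in Ctrl, 5.20, 4.78 and 3.79 RPKM in ONC, and 4.25, 3.16 and 5.05 RPKM in TPEN, and a lower bound of -0.64.

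**Figure D3:**
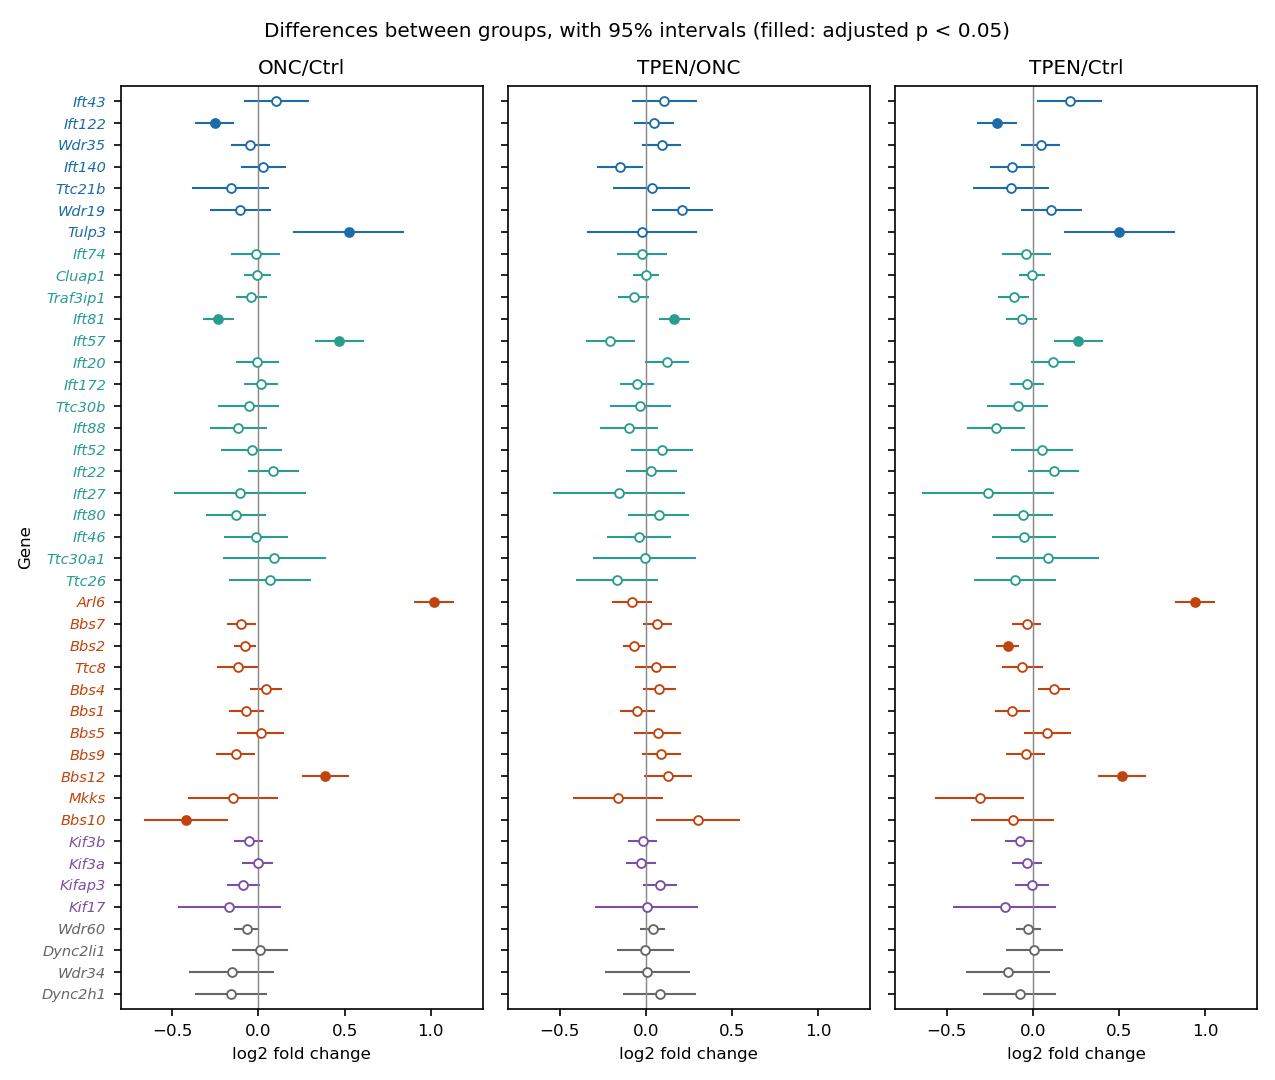
Log2 fold change of each of the 42 members in ONC/Ctrl, TPEN/ONC and TPEN/Ctrl, with 95% intervals from the limma fit, filled where the adjusted p was under 0.05. Most members lie near 0 in each panel, Arl6 lies near 1 in both comparisons with Ctrl, and Ift81 is the one filled point in TPEN/ONC.

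Some other members share reads with copies or overlapping genes. Ttc30a1, an IFT-B subunit, measured 2.95, 2.58 and 3.73 RPKM in Ctrl, 3.64, 3.28 and 2.90 RPKM in ONC, and 3.24, 3.22 and 3.27 RPKM in TPEN. It is 95.6% identical to Ttc30a2 over 1975 bases, so the split of reads between them is uncertain, and neither passed in any comparison. Cluap1, a peripheral IFT-B subunit, shares 510 bases at 100% identity with Gm20695. It measured 47.6, 46.7 and 46.9 RPKM in Ctrl, 46.9, 47.6 and 46.1 RPKM in ONC, and 46.1, 48.7 and 45.9 RPKM in TPEN, with overlap between all groups.

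Genes that act beside these transport complexes were examined in lists of neighboring function. Among 20 other ciliary transport genes (small GTPases, tubby proteins and further subunits), 0 passed in ONC/Ctrl by limma (3 at an unadjusted p under 0.05, and 1 by voom, the tubby protein gene Tub), and 1 was lower in TPEN/ONC, Ccdc28b, which affects ciliary length, by -0.18 on the log2 scale (limma adjusted p = 0.030). Of 7 carriers of lipidated cargo, 2 were lower in ONC/Ctrl, the GTPase Arl3 (-0.14, limma adjusted p = 0.016) and its cargo carrier Unc119 (-0.13, adjusted p = 0.011), and 0 passed in TPEN/ONC by limma (1 at an unadjusted p under 0.05, 0 by voom). The transition zone gates entry to the cilium, and 2 of its 20 tested genes were lower in ONC/Ctrl, Rpgrip1 (-0.29, limma adjusted p = 5.6e-05) and Cep290 (-0.27, adjusted p = 3.2e-04), both required in photoreceptors. In TPEN/ONC 2 were higher, Rpgr (0.27, limma adjusted p = 0.0061) and Cc2d2a (0.19, adjusted p = 0.014). Of 13 tested genes of the photoreceptor cilium and axoneme, 2 were higher and 4 lower in ONC/Ctrl, with Fam161a (-0.33) and the ciliary kinase Mak (0.24) at the extremes, and 2 were higher and 2 lower in TPEN/ONC. Every called gene of these 4 lists moved by less than 1.5-fold, as did every called member but Arl6.

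Of the RFX and FOXJ1 factors that drive ciliary genes, 6 were tested. Rfx2 rose in ONC/Ctrl from a range of 1.46 to 2.05 RPKM in Ctrl to 7.49 to 7.73 RPKM in ONC (log2 fold change 2.08, limma adjusted p = 1.4e-06), and ranged from 5.68 to 6.48 RPKM in TPEN. Foxj1, best known from motile cilia, fell by 0.77 on the log2 scale (limma adjusted p = 0.019) from a range of 0.884 to 1.37 RPKM in Ctrl. Rfx1, Rfx3, Rfx5 and Rfx7 passed in no comparison by limma, and voom called Rfx7 lower in ONC/Ctrl and Rfx2 lower in TPEN/ONC. Of 12 genes of motile cilia, 11 were not among the 15228 genes of the deposited table, so they were not analysed here. The remaining gene, Ccdc39, ranged from 9.54 to 10.7, from 8.38 to 8.60 and from 7.57 to 7.74 RPKM in Ctrl, ONC and TPEN. Ccdc39 was lower in ONC/Ctrl (log2 fold change -0.23, limma adjusted p = 0.0136) and in TPEN/Ctrl (-0.38, adjusted p = 0.0013). Of 3 tested genes of Hedgehog signaling, which runs through primary cilia, 0 passed in any comparison by limma or voom, or at an unadjusted p under 0.05.

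**Figure D4:**
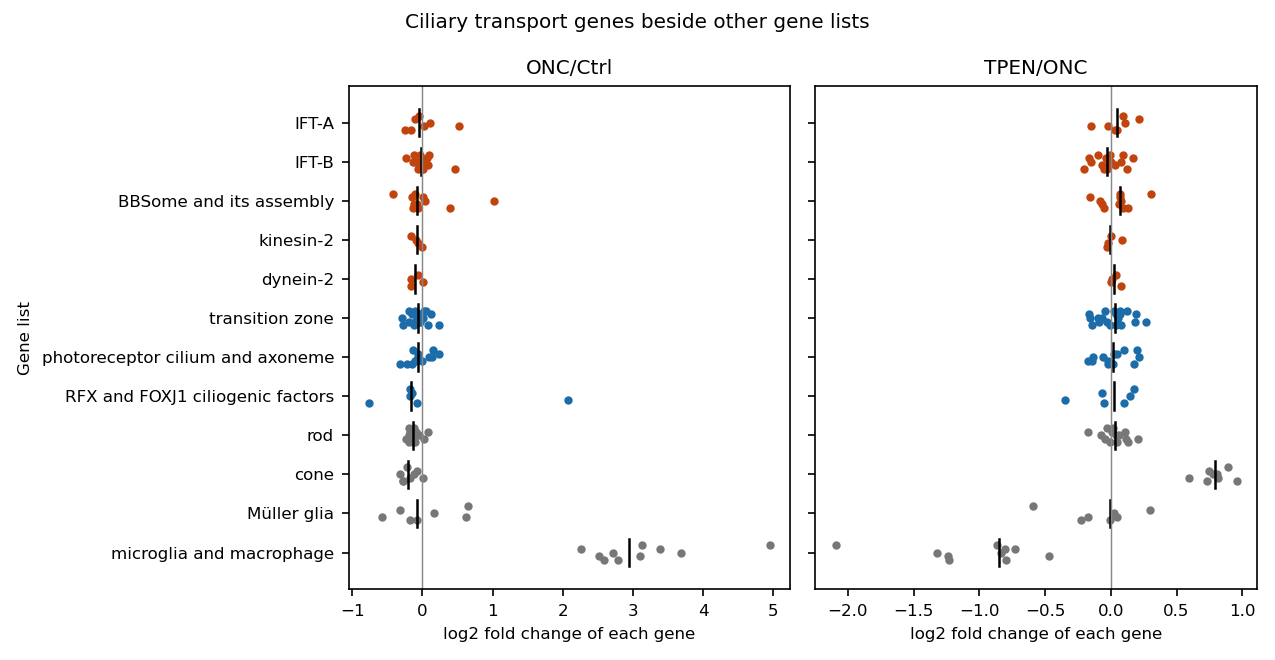
Log2 fold change of each gene in ONC/Ctrl and TPEN/ONC by list, with members in orange, other ciliary lists in blue and cell type markers in gray. Black lines are medians. The member lists lie near 0, while the microglia and macrophage markers are high in ONC/Ctrl, the cone markers are high in TPEN/ONC, and Rfx2 stands apart at 2.08 in ONC/Ctrl.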

How the data were processed

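Stranded mRNA libraries were prepared from sorted cells with a kit that adds molecular identifiers. The authors trimmed reads (Trimmomatic 0.36, from the submitters' processing notes), aligned them to GRCm38 and deposited RPKM per gene. The counting program, annotation, use of strand and collapse of identifiers are not given in the sources used here. The authors' own fold changes, p-values and FDR values in the same table were not used. RPKM times gene length gave whole reads for 100% of values within 0.01 reads, which gave the totals per library. A gene without reads could hold up to 3 reads, or 0.130 to 0.150 RPM, counting error only.

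Levels were tested as log2(RPKM + 0.1) with limma 3.58.1 (R 4.3.3, trended variance, all 9 libraries) over the 13566 genes whose mean level reached 0.5 RPKM, all 42 members among them. P-values were two-sided and adjusted by Benjamini and Hochberg over all genes tested. Fold changes on this scale understate those of low genes. Scripts ran in Python 3.11.15 with pandas 2.3.3, scipy 1.17.1 and matplotlib 3.10.9, near copies were searched with blastn 2.17.0 (transcripts of the reference annotation, at least 95% identity over 200 bases), and the fit was tested on simulated data.

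Values in every library are given for called members, the 3 highest and 3 lowest by mean, the 3 uncalled members with the smallest p in TPEN/ONC, and near copies. Members and lists were chosen with earlier results of these data known. Ift74, Ift27, Bbs4, Kifap3 and the neighboring or overlapping genes were chosen after their values were seen. Lists of other ciliary genes and of markers were written from general knowledge. Alternatives were a pseudocount of 1, other filters, quantile normalization, only the 6 libraries compared, a replicate block, voom on whole reads and leaving out each library. All columns matched a sample.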

Additional observations from a re-analysis of the deposited data

How the results depend on the processing

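Levels came without stated counting rules, and the fewest reads, those of Ift27, limited precision most. With a pseudocount of 1, no filter or a mean of at least 1 RPKM, all 6 counts of called members were the same. The limma F test kept all 8 called members past the threshold. Of the called values, 99 of 126 held when a library was left out and 27 lost the call, while 90 of 98 held under the other settings and 8 lost it. In ONC/Ctrl, quantile normalization gave 8 lower members in place of 3, and leaving out a library gave 3 to 4 higher and 2 to 3 lower. In TPEN/ONC, voom gave 2 higher and 1 lower in place of 1 and 0, using only the 6 libraries compared gave 1 lower, and leaving out a library gave 0 to 1 in each direction. In TPEN/Ctrl, leaving out a library gave 2 to 4 higher in place of 4 and 1 to 2 lower in place of 2. The cause was not tested.

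Libraries with the same replicate number did not deviate together (correlations -0.062 to 0.027 over 9 pairs, against -0.037 to 0.051 over the 18 other pairs). These correlations cannot show whether same-numbered libraries were handled together, which the labels do not state. With replicate number as a block, 0 members were higher in TPEN/ONC, and 2 were higher and 1 lower in TPEN/Ctrl. Ift81 in TPEN/ONC (limma adjusted p = 0.0521), and Ift57 (0.0517), Ift122 (0.0521) and Tulp3 (0.0738) in TPEN/Ctrl lost the call there.

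Signs were compared for the 15 members named by rule, and the differences that changed sign were without a call. Ift140 in ONC/Ctrl was -0.012 after quantile normalization. When a library was left out, Ift20 in ONC/Ctrl ranged from -0.049 to 0.039 (above 0 without Ctrl replicate 1 or ONC replicate 3). Tulp3 in TPEN/ONC ranged from -0.14 to 0.082 (above 0 without ONC replicate 2 or TPEN replicate 3). Kif17 in TPEN/ONC ranged from -0.069 to 0.064 (below 0 without ONC replicate 2, ONC replicate 3 or TPEN replicate 1).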
